A study of Mus musculus with 6 samples.

Results

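Notch signalling lets neighbouring cells of the embryonic neural tube settle which of them stays a progenitor and which becomes a neuron. Of its genes, 10 were read here in rhombomere 1, the most anterior segment of the hindbrain: the ligands Dll1 and Dll3, the receptor Notch1, the modulators Lfng, Mfng and Nrarp, the target genes Hes1, Hes5 and Hey1, and the Hes-related gene Hes6. All probes that the platform annotation names for these genes were taken, 14 of 45276 on the array, for 10 of the 19054 genes with a named probe. The tissue came from E12.5 mouse embryos, strain ICR (CD-1). Mutants carried En1-cre and Gata2 flox/flox, and controls, although titled wildtype, carried En1-cre and Gata2 flox/+ according to the design text, so both groups had the recombinase and a floxed allele. En1-cre acts in the midbrain and rhombomere 1, and Gata2 is a zinc finger transcription factor of young neurons and their precursors. Each group held 3 pools of 6 dissected pieces, so single embryos were not resolved, and each pool was measured on 1 Illumina Mouse WG-6 BeadChip array, which reads RNA as the brightness of beads that carry gene probes. Arrays are called by the codes in the column names, 5R, 6R and 7R for controls and 1R, 2R and 3R for mutants.

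When a Delta ligand on 1 cell binds Notch on the next, the receptor is cut and its intracellular part enters the nucleus, where it joins the DNA-binding protein RBPJ and switches on genes of the Hes and Hey families. Hes and Hey proteins are repressors that hold back proneural factors and so keep the cell a progenitor, while a cell with strong proneural activity makes more Delta ligand and leaves the progenitor pool. In the embryonic hindbrain this exchange spaces out the birth of neurons in time.

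The arrays were alike in quality. Between 42.8% and 45.1% of probes on an array were above background, the raw median intensity lay between 69.8 and 76.7, and normalized values of kept probes correlated at 0.988 to 0.993 between arrays of 1 group and at 0.988 to 0.991 between arrays of different groups. The single Gata2 probe was not lower in mutants, with 10.71, 10.41 and 10.48 in controls and 10.79, 10.79 and 11.09 in mutants on the log2 scale. It was higher in mutants without overlap, though not called (difference 0.36 ± 0.12, unadjusted p = 0.00907, limma adjusted p = 0.418). No source used here places this probe relative to the deleted sequence, so it does not check the labels. All 4 rhombomere 1 markers were detected. The brightest were En1 (11.59 ± 0.17 in controls, SD, n = 3) and En2 (12.45 ± 0.19), which differed by -0.25 and -0.18, mutant minus control. Gbx2 differed by 0.67, from 7.09 ± 0.77 in controls to 7.75 ± 0.75 in mutants, and Fgf8 by 0.41 (limma unadjusted p = 0.0246). The groups overlapped in all 4, and by limma 0 were called. At an unadjusted p under 0.05 there was 1 of 4, where 8.83% of all genes were. Otx2, a marker of the neighbouring midbrain, was also detected at 8.33 ± 0.44 in controls and 8.34 ± 0.35 in mutants. Hoxa2 and Hoxb2, markers of the neighbouring hindbrain, were dim, at 5.06 and 5.09 in controls. They differed by 0.34 and -0.20, Hoxb2 without overlap, and by limma 0 of these 3 neighbour markers were called. The number of arrays limits the precision of every value.

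The promoters of Hes5, Hes6 and Nrarp are shown first, because these 3 genes had the smallest p-values among the members. The windows are the 250 bases before the annotated start, from RefSeq on GRCm38.p6, written 5′ to 3′ on the strand of the gene, and capitals mark every match to TGGGAA, the core of the sequence that RBPJ binds, to CACGTG or to CACNAG, which are E box and N box sequences bound by Hes and Hey repressors, each searched on both strands.
Hes5, chr4:154960673-154960922, plus strand: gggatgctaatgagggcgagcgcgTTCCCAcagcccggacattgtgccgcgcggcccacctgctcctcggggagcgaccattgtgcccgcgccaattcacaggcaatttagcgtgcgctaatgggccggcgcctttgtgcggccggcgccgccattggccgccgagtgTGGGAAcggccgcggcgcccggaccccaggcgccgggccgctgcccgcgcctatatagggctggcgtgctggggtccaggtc
Nrarp, chr2:25180508-25180757, plus strand: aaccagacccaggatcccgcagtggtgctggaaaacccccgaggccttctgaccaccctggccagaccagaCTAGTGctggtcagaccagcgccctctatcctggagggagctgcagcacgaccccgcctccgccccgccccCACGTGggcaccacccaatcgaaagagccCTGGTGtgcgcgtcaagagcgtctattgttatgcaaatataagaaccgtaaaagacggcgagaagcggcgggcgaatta
Hes6, chr1:91413223-91413472, minus strand: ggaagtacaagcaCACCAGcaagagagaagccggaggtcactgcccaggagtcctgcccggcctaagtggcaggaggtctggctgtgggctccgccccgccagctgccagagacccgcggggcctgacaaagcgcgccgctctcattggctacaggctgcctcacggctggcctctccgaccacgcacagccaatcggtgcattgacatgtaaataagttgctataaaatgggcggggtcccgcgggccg
The Hes5 window held 2 matches to TGGGAA, 1 on each strand, whose first bases lie 226 and 82 bases before the start. Nrarp held 1 match to CACGTG and 2 to CACNAG, and the Hes6 window shown held 1 match to CACNAG. A further annotated Hes6 start had no match to any of the 3 motifs in its window. Of the 10 members, 7 had a window in the table, 9 windows in all. TGGGAA was found in 2 of the 9, those of Hes5 and Lfng, against 21.6% of all 32851 windows. CACGTG was found in 2 of 9, against 6.02% of all windows, and CACNAG in 4 of 9, against 36.7%. A match describes the letters only.

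The question put to the arrays was whether the Notch genes differ between control and Gata2 mutant rhombomere 1. None of the member probes changed at an adjusted p under 0.05. Hes5 and Hes6 nevertheless stood higher in all 3 mutant pools than in all 3 control pools with each of their 5 probes, by 1.21-fold to 1.37-fold, whereas Hes1, Notch1 and Mfng differed by less than the spread between pools. Of the 14 probes, 12 were above background on 6 of 6 arrays and were kept, and 2, those of Dll3 and Lfng, did not pass the detection filter. Of these 12, 0 were called (limma, Benjamini-Hochberg over 19936 kept probes), where 0.145% of all kept probes were. At an unadjusted p under 0.05 there were 6 of 12, all with higher values in mutants, against 3.98% of all kept probes that were higher at this p. Of the 12, 8 differences were positive, against 52.1% of all kept probes. The groups did not overlap in 5 of 12, all higher in mutants, against 7.42% of all kept probes that were higher without overlap. The 12 probes belong to 8 genes and are not independent, since the 5 probes without overlap read only 2 genes. By median, the 12 probes differed by 0.25 in log2, mutant minus control, and all kept probes by 0.01; taking the brightest probe of each gene, the medians were 0.18 over 8 genes and 0.01 over 10524 genes. In whole tissue, a change in the share of cells that carry a transcript and a change in the amount per cell cannot be told apart.

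**Figure D1:**
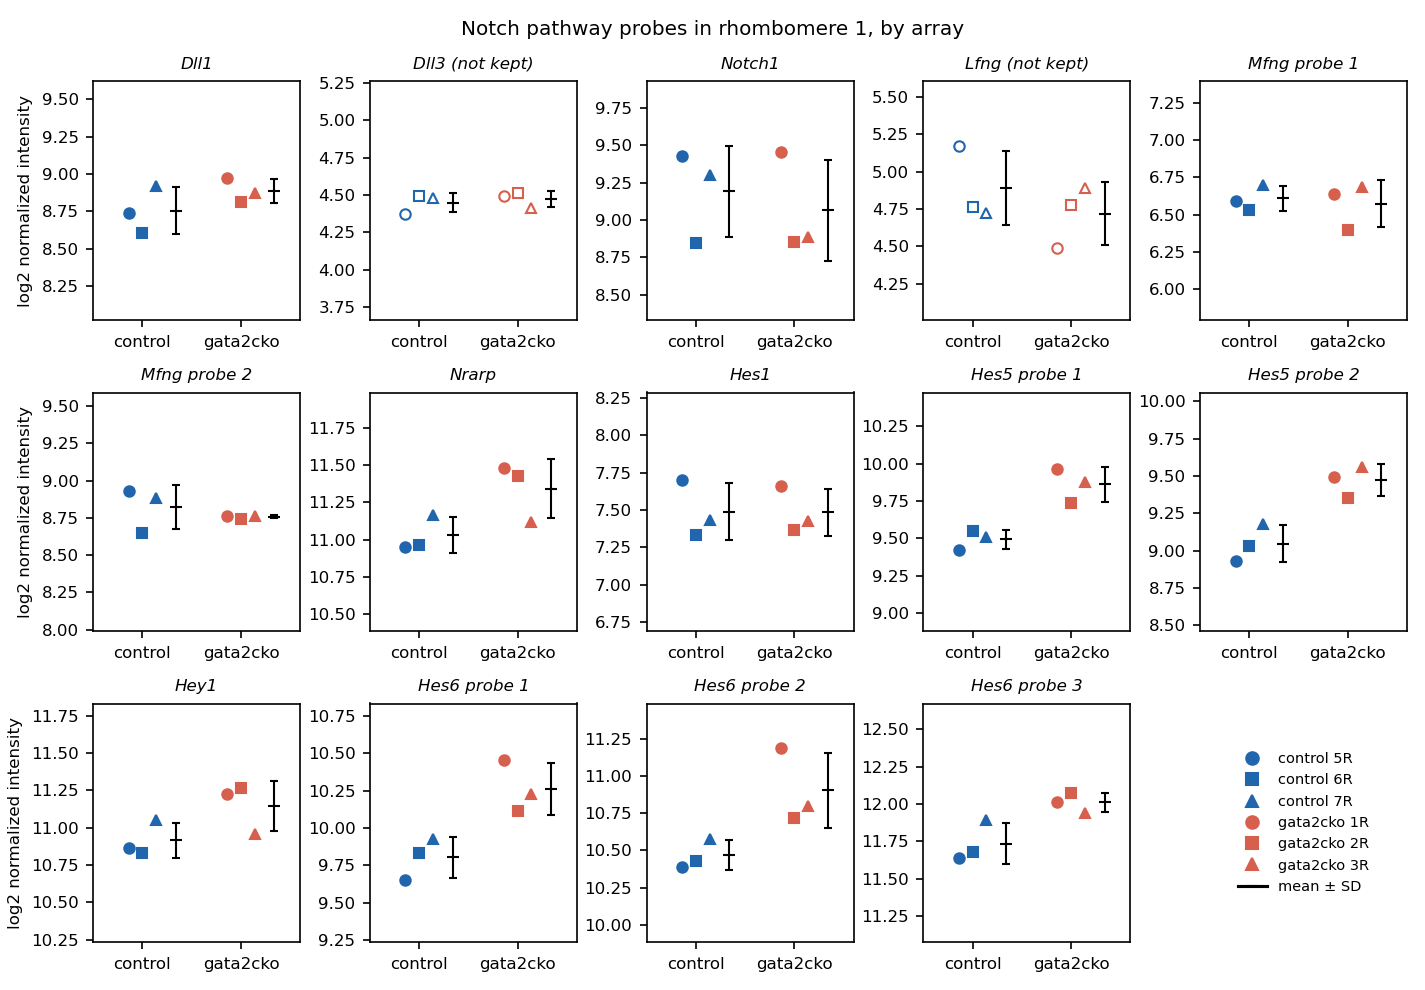
Log2 normalized intensity of each of the 14 probes, with 1 panel a probe, 1 symbol an array, and the mean ± SD of each group (n = 3) in black; every panel spans the same range of log2 units, and open symbols mark the 2 probes that were not kept. The 3 mutant symbols lie above the 3 control symbols for both Hes5 probes and all 3 Hes6 probes, and the groups overlap in the other panels.

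Dll1 is a transmembrane ligand that activates Notch on the neighbouring cell and is made by cells about to become neurons. Its log2 values were 8.74, 8.61 and 8.92 in control arrays 5R, 6R and 7R and 8.97, 8.81 and 8.87 in mutant arrays 1R, 2R and 3R. The groups overlapped, because control 7R lay above 2 of the mutant arrays. The difference was 0.13 ± 0.11 (95% interval -0.12 to 0.38, unadjusted p = 0.275, limma adjusted p = 0.787), an interval that corresponds to folds from 0.922 to 1.30. It was 0.06 without control array 6R and 0.21 without control array 7R. Dll3, a divergent Delta protein that does not activate Notch on neighbouring cells and acts within its own cell, was above background on 0 of 6 arrays. Its values, 4.37 to 4.49 in controls and 4.41 to 4.51 in mutants, are those of background and give no level for the gene.

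Notch1 encodes the receptor whose cleaved intracellular part carries the signal to the nucleus. It was measured at 9.43, 8.85 and 9.30 in controls and 9.46, 8.85 and 8.88 in mutants. Control arrays 5R and 7R and mutant array 1R were high, and control 6R and mutants 2R and 3R low, so the spread lay within the groups rather than between them. The difference of -0.13 ± 0.18 (95% interval -0.51 to 0.25, limma adjusted p = 0.876) had the widest interval of the 12 probes. Without mutant array 1R it was -0.32, and without control array 5R it was -0.01.

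Lfng and Mfng are Fringe enzymes, glycosyltransferases that extend the sugars on the Notch receptor and so tune its response to Delta and Jagged ligands. Lfng was above background on 1 of 6 arrays, control 5R, where its value was 5.17, and lay between 4.49 and 4.89 on the other 5. At this signal no difference was detectable, and Lfng gives no level here. The 2 Mfng probes were above background on all arrays. The brighter, ILMN_2687661, was 8.93, 8.65 and 8.88 in controls and 8.76, 8.74 and 8.76 in mutants, so that the 3 mutant values lay inside the range of the controls. It differed by -0.06 ± 0.11 (95% interval -0.30 to 0.18, limma adjusted p = 0.905), and the dimmer, ILMN_2631081, by -0.03 ± 0.14 (95% interval -0.33 to 0.26, limma adjusted p = 0.965). Both intervals lie between a fold of 0.797 and a fold of 1.20.

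Nrarp, a small ankyrin repeat protein, is itself switched on by Notch and dampens the signal in a feedback loop. Its values were 10.95, 10.97 and 11.17 in controls and 11.48, 11.42 and 11.12 in mutants. Mutant arrays 1R and 2R lay above all controls, but mutant 3R lay just below control 7R, by 0.05. The difference was 0.31 ± 0.11 (95% interval 0.07 to 0.56, unadjusted p = 0.0168, limma adjusted p = 0.452), a fold of 1.24. Leaving out 1 array at a time, the difference ranged from 0.24 to 0.43.

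Hes5 is a basic helix-loop-helix repressor of neural progenitors and a well-known target of Notch in the neural tube. On probe ILMN_1253414 its values were 9.42, 9.55 and 9.51 in controls and 9.96, 9.74 and 9.88 in mutants. The lowest mutant value lay 0.19 above the highest control value. The difference was 0.37 ± 0.10 (95% interval 0.14 to 0.59, unadjusted p = 0.00349, limma adjusted p = 0.332), a fold of 1.29. The second probe, ILMN_2624153, read 8.93, 9.03 and 9.18 in controls and 9.49, 9.35 and 9.56 in mutants, again with no overlap and with a gap of 0.18. It differed by 0.42 ± 0.11 (95% interval 0.19 to 0.66, unadjusted p = 0.00202, limma adjusted p = 0.293), a fold of 1.34. The p-values of the 2 probes ranked 208 and 134 among the 19936 kept probes, and neither passed after adjustment. The raw intensities were also apart, from 691 to 818 in controls and 971 to 1075 in mutants on the first probe, and from 535 to 583 and 762 to 802 on the second.

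Hes1, a repressor of the same family that also serves as a target of other signals, did not share this pattern. Its values were 7.70, 7.33 and 7.44 in controls and 7.66, 7.36 and 7.43 in mutants, nearly the same 3 values in each group. The difference was -0.00 ± 0.14 (95% interval -0.30 to 0.29, limma adjusted p = 0.996). To set Hes5 against Hes1 directly, the log2 ratio of the 2 probes was taken within each array, a comparison chosen after the values were seen. With the first Hes5 probe the ratio was 1.72, 2.22 and 2.07 in controls and 2.30, 2.37 and 2.45 in mutants. The mutant ratios lay above the control ratios, by 0.37 on average, with a two-sided exact permutation p = 0.1, the smallest that 3 against 3 pools can give. With the second Hes5 probe the mean shift was 0.43, also without overlap and with the same exact p = 0.1. Because the non-overlap was seen first, this p adds no support of its own. Control array 5R had the lowest ratio with both probes, and without it the mean shifts were 0.23 and 0.26.

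Hey1, a related repressor of the Hey family that Notch also induces, lay between these cases. Its values were 10.87, 10.83 and 11.05 in controls and 11.22, 11.26 and 10.96 in mutants. As for Nrarp, mutant arrays 1R and 2R were above all controls and mutant 3R was below control 7R. The difference was 0.23 ± 0.11 (95% interval -0.01 to 0.47, unadjusted p = 0.0548, limma adjusted p = 0.570), a fold of 1.17. Without mutant array 3R it was 0.33, and without mutant array 2R it was 0.17.

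Hes6 differs from the other Hes genes in its role. In the mouse it is made by cells on their way to becoming neurons, is driven by proneural factors, and counteracts Hes1 rather than acting as a Notch target that holds back differentiation. On probe ILMN_1214126 its values were 9.65, 9.83 and 9.93 in controls and 10.45, 10.11 and 10.23 in mutants. The gap between the groups was 0.19, and the difference of 0.46 ± 0.12 (95% interval 0.21 to 0.71, unadjusted p = 0.00170, limma adjusted p = 0.284) was the largest of the 12 probes, a fold of 1.37. On probe ILMN_2608043 the values were 10.39, 10.43 and 10.58 in controls and 11.19, 10.72 and 10.80 in mutants, where array 1R stood highest. This probe differed by 0.44 ± 0.12 (95% interval 0.17 to 0.70, limma adjusted p = 0.337), and by 0.29 without array 1R. On the brightest probe, ILMN_2791952, the values were 11.64, 11.68 and 11.89 in controls and 12.02, 12.08 and 11.94 in mutants, with a gap of 0.05. It gave the smallest of the 3 differences, 0.28 ± 0.10 (95% interval 0.06 to 0.49, unadjusted p = 0.0147, limma adjusted p = 0.441). The 3 intervals overlap over most of their length, and all 3 probes place the 3 mutant pools above the 3 control pools.

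**Figure D2:**
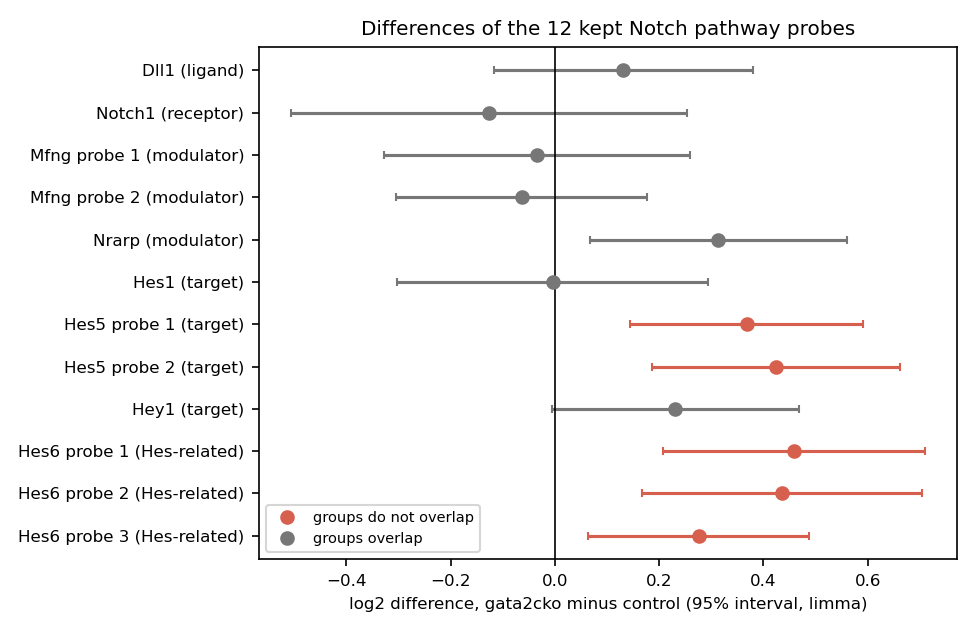
Log2 difference, mutant minus control, of the 12 kept probes with 95% intervals from limma, ordered by role from ligand to Hes6; orange marks probes whose groups do not overlap. The intervals of Hes5, Hes6 and Nrarp lie above 0 before adjustment for multiple testing, that of Hey1 reaches -0.01, and those of Dll1, Notch1, Mfng and Hes1 span 0.

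The rest of the pathway was read from 6 lists with 52 genes, of which 47 had a named probe and 36 were measured. Of these 36, 0 were called by limma, where 0.171% of 10524 genes were, and 4 had an unadjusted p under 0.05, where 8.83% of all genes did. Their differences ran from -0.44 to 0.22, 16 positive and 20 negative, where 53.3% of all genes were positive, with a median of -0.02 beside 0.01 over all genes. The groups did not overlap in 5 of 36, near the 14.1% of all genes. Of these, Dner, Aph1b, Psen2 and Itch were lower in mutants and Ncstn was higher.

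Among the other ligands 4 of 6 were measured. Dner, a neuronal transmembrane protein with Delta-like repeats, had a control mean of 11.78 ± 0.05 and a mutant mean of 11.54 ± 0.14 (SD, n = 3). It differed by -0.23 ± 0.10, lower in mutants without overlap (unadjusted p = 0.034, limma adjusted p = 0.521). Jag2, a Jagged-type ligand, differed by 0.18 ± 0.16 (adjusted p = 0.796). Both other receptors measured, Notch3 at 0.14 and Notch4 at -0.12, overlapped between groups. Among the enzymes that cut or mature the receptor, 9 of 13 were measured, 5 of them positive. Aph1b, a subunit of the gamma-secretase complex that makes the final cut, was 8.12 ± 0.24 in controls and 7.67 ± 0.15 in mutants. Its difference of -0.44 ± 0.14, without overlap, was the most negative of the 36 (unadjusted p = 0.00779, limma adjusted p = 0.399). Psen2, a catalytic subunit of the same complex, differed by -0.22, also lower in mutants without overlap (unadjusted p = 0.132, limma adjusted p = 0.686). Other subunits of the complex went the other way. Ncstn differed by 0.21, higher in mutants without overlap (unadjusted p = 0.0458, limma adjusted p = 0.555), Aph1a by 0.08 and Psenen by 0.07.

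The nuclear partners and corepressors had 9 of 12 genes measured, 4 positive and 5 negative, with a median of -0.05. Spen, a corepressor that binds RBPJ, differed by 0.22 ± 0.16 and Tle5, a short protein of the Groucho family, by 0.21 ± 0.15, and neither was called (adjusted p = 0.735 and 0.727). Rbpj itself was below the detection filter. Of the genes for endocytosis and turnover of Notch and its ligands, 10 of 12 were measured, 4 of them positive. Itch, a ubiquitin ligase that acts on Notch, was 7.86 ± 0.13 in controls and 7.54 ± 0.16 in mutants, without overlap. The difference was -0.31 ± 0.13 (unadjusted p = 0.0292, limma adjusted p = 0.508). Neurl1a, a ubiquitin ligase of the Neuralized family, differed by -0.21 (adjusted p = 0.668). Of the other Hes and Hey genes 2 of 6 were measured, Helt at -0.38 ± 0.26 (adjusted p = 0.718) and Hes2 at 0.06 (adjusted p = 0.955), both dim, and Hes3, Hes7, Hey2 and Heyl were below the detection filter.

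**Figure D3:**
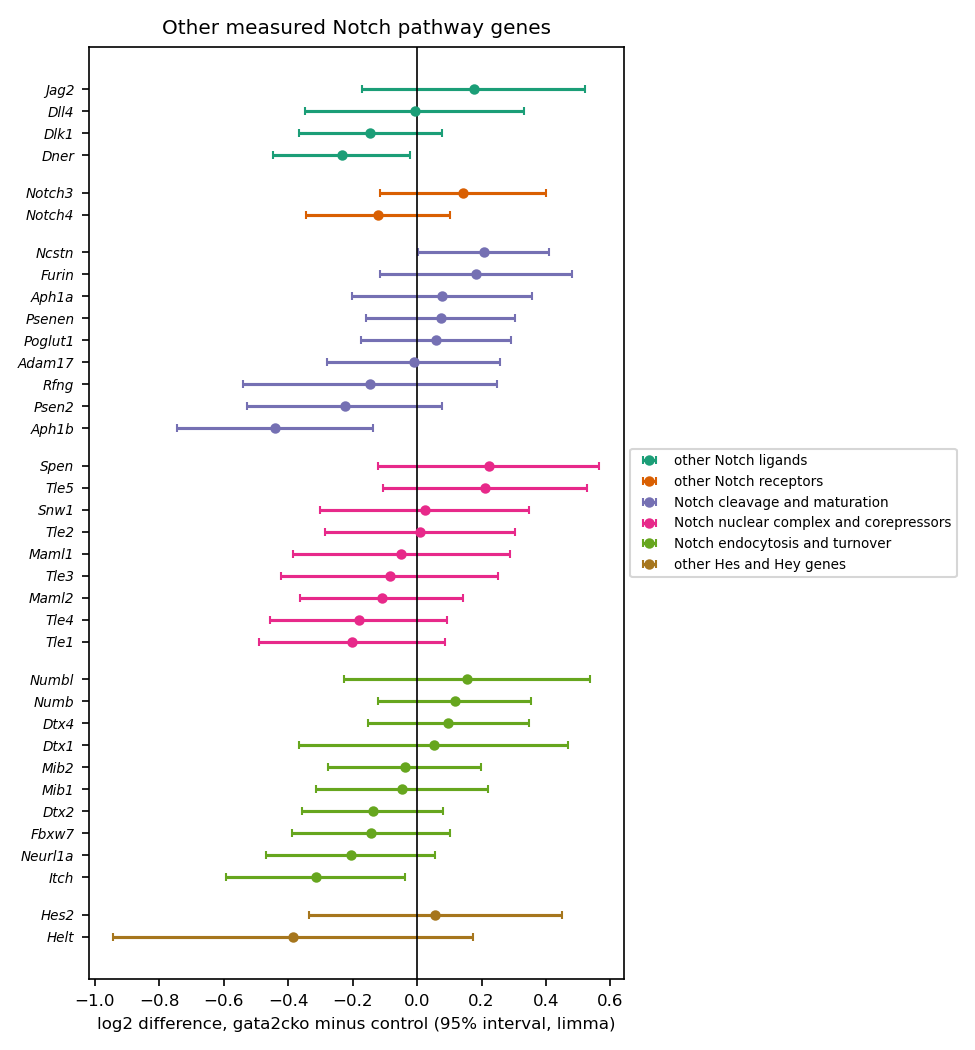
Log2 difference, mutant minus control, with 95% limma intervals, of the 36 measured genes of the 6 other Notch lists, each by its brightest kept probe and coloured by list. The differences lie on both sides of 0, from -0.44 for Aph1b to 0.22 for Spen, and none was called.

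Proneural factors, which Hes proteins repress and which drive Dll1 and Hes6, had 5 of 13 genes measured and 0 called by limma, with 0 also at an unadjusted p under 0.05. Their median difference was 0.07, with 4 positive. Neurog3 differed by 0.52 ± 0.25 (adjusted p = 0.590), close to background at 5.09 ± 0.61 in controls and 5.62 ± 0.27 in mutants. Neurog2, a main proneural factor of neural progenitors, differed by 0.21 ± 0.17 (adjusted p = 0.769), from 9.43 ± 0.37 to 9.64 ± 0.21.

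Markers of the cells that the tissue holds were read beside Hes5 and Hes6. Of 10 progenitor markers 9 were measured, 0 were called by limma, 0 had an unadjusted p under 0.05 and 4 were positive, with a median of -0.00. Their summed linear level was 19883 to 23091 in controls and 20607 to 24514 in mutants. The brightest, Sox9 and Slc1a3, differed by -0.02 and -0.05. The largest positive differences were 0.25 for Sox3, 0.23 for Nes and 0.19 for Vim, and the most negative was -0.14 for Sox1. The groups overlapped in each of these. Sox1 and Sox3 were dim, at 5.34 and 6.12 in controls. Of 10 markers of young neurons 9 were measured, 0 were called, 0 had an unadjusted p under 0.05 and 2 were positive, with a median of -0.08 and summed levels of 25397 to 28044 in controls and 24605 to 26254 in mutants. Stmn2 and Dcx, the brightest of these, differed by -0.08 and -0.16. Dcx was lower in mutants without overlap, the only 1 of the 9 without overlap, where 14.1% of all genes did not overlap. Elavl3 differed by 0.16, with overlap.

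Markers of blood, vessel and connective tissue cells were read in the same way. All 6 erythroid markers measured, of 8, were positive, where 53.3% of all genes were, with a median of 0.26. By limma 0 of them were called and 3 had an unadjusted p under 0.05, where 8.83% of all genes did. Their summed level was 50413 to 56904 in controls and 53566 to 61888 in mutants. The groups did not overlap in 3 of the 6, all higher in mutants, where 7.69% of all genes were higher without overlap. The brightest, Hba-a1 and Hbb-y, differed by 0.08 and 0.03, and the embryonic globins Hbb-bh1 and Hba-x by 0.53 and 0.41 (unadjusted p = 0.00199 and 0.00636, limma adjusted p = 0.293 and 0.380), as large as the differences of Hes5 and Hes6. Endothelial markers, 7 of 8 measured, had a median of 0.01, with 4 positive and 0 at an unadjusted p under 0.05, and summed levels of 1291 to 1420 in controls and 1150 to 1377 in mutants. The brightest, Esam and Cldn5, differed by -0.14 and -0.24. Microglial markers, 5 of 6 measured, had a median of -0.12, with 1 positive. By limma 0 were called and 1 had an unadjusted p under 0.05, beside 8.83% of all genes. The summed levels of these markers were 263.3 to 293.6 in controls and 230.4 to 265.5 in mutants. The brightest, Cx3cr1 and Aif1, differed by -0.31 and -0.12, and Csf1r by -0.39 (unadjusted p = 0.0228) without overlap. Mesenchymal and mural markers, 3 of 8 measured, held 1 called gene, the smooth muscle actin Acta2, which was higher in mutants by 1.34 in log2 (limma adjusted p = 0.00211). Its level was 4.88 ± 0.11 in controls, close to background, and 6.21 ± 0.24 in mutants. The summed level of these markers was 209.6 to 212.2 in controls and 225.2 to 279.3 in mutants. The brightest, Dcn and Twist1, differed by -0.06 and 0.11, and the collagens Col1a1, Col1a2 and Col3a1 were below the detection filter. The part of these lists in the Hes5 and Hes6 values was not tested.

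**Figure D4:**
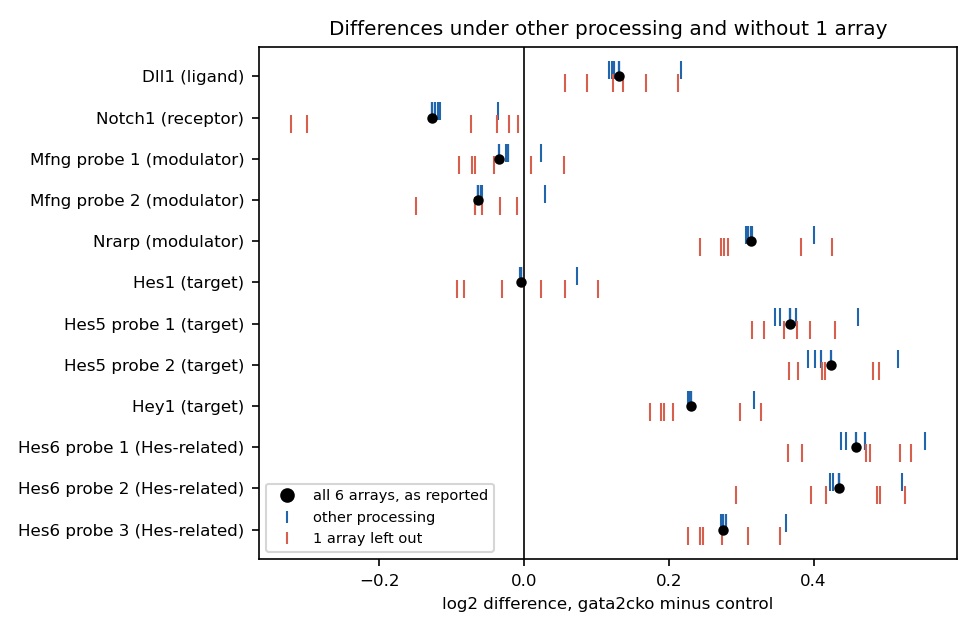
Log2 difference, mutant minus control, of the 12 kept probes as reported (black), under other processing (blue) and with 1 array left out (orange). All values of Hes5, Hes6, Nrarp, Hey1 and Dll1 are above 0, all values of Notch1 are below 0, and those of Hes1 and both Mfng probes fall on both sides.

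Leaving out 1 array changed the size of the Hes5 and Hes6 differences. It could not turn them negative, because the groups of these probes do not overlap. Settings that change only the detection filter, the intensity trend of the fit or the number of probes a gene leave a difference as it is. Over the 14 or 15 alternative settings of each probe, the Hes5 differences ran from 0.32 to 0.46 for the first probe and 0.37 to 0.52 for the second. Those of the 3 Hes6 probes ran from 0.23 to 0.55. No setting brought any member probe past an adjusted p of 0.05, the lowest being 0.147 for Hes6. The number of member probes higher without overlap was 5 of 12 as reported. It was 8 without control array 7R, where 14% of all kept probes were higher without overlap, and 7 without mutant array 3R, beside 13.8%. Without any 1 of the other arrays it stayed at 5. Leaving out an array cannot lower this number.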

How the data were processed

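RNA of rhombomere 1 was measured in 3 control and 3 mutant pools. The authors deposited probe intensity on a linear scale without normalization, and a detection p-value for each intensity, per the file headers. GenomeStudio 1.0 is named in the submitters' processing notes without a stated role. A second deposited table holds the authors' normalized intensity, whose columns share a median of 86.4, and served as an alternative. The intensity columns name a genotype but no titled sample, so columns count as unnumbered replicates within a group. The design text calls the pools biological replicates.

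With limma 3.58.1 in R 4.3.3, intensities were corrected by normexp with background inferred from the detection p-values (offset 16), quantile normalized and put on the log2 scale. A probe was kept where 3 or more of 6 arrays had a detection p-value under 0.05, which left 19936 of 45276. Mutant minus control was fitted per probe (lmFit, then eBayes with a trend on intensity; prior degrees of freedom 8.98). Benjamini-Hochberg adjustment ran over all kept probes, and the threshold was 0.05. Standard errors and 95% intervals are limma's. Genes outside the 10 members were read by the kept probe with the highest mean. Scripts were tested on simulated data. Gene names came from the platform annotation, with 34881 probes of 1 symbol, 18 of several and 10377 of none.

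The members and the lists were chosen with earlier results of these data known. Named were all members, the 2 genes with the largest difference and any called gene of each other Notch list and of the proneural list, and the 2 brightest of each marker list. Acta2, Otx2, Gbx2, Fgf8, Hbb-bh1, Hba-x, Csf1r and genes below the detection filter were added after their values were seen. So were Hoxa2, Hoxb2, Ncstn, Aph1a, Psenen, Sox1, Sox3, Nes, Vim and Elavl3. Alternatives were uncorrected background, offset 50, median scaling, the normalized table without and with a replicate block, dropping the detection filter, tightening it (a detection p-value under 0.01 throughout 1 group), 1 probe a gene, no intensity trend, each array left out in turn, and a threshold of 0.1. No source used here gives the slide of an array, so no slide block was fitted.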

Additional observations from a re-analysis of the deposited data

How the results depend on the processing

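No member probe, no gene of the other Notch lists and no proneural gene was called by limma in any alternative, also at a threshold of 0.1. Of 176 differences of member probes under the alternatives, 168 kept their direction, which a change of the filter or trend alone could not alter. The 8 others belong to probes with differences near 0: under median scaling Hes1 was 0.0728 and the Mfng probes 0.0240 and 0.0286, while without 1 array Hes1 ranged from -0.0925 to 0.102 and Mfng probe ILMN_2631081 from -0.0900 to 0.0550. Median scaling moved the median of all kept probes to 0.07 and that of the member probes to 0.34, and 8 of 12 member probes were then higher without overlap, beside 14.2% of all kept probes. With 1 probe a gene, 3 of 8 members were higher at an unadjusted p under 0.05, beside 4.34% of all genes, and 2 of 8 were higher without overlap, beside 7.69%. The ratio of Hes5 over Hes1 was higher in mutants in every setting, by 0.23 to 0.52. Leaving out 1 array could not change its direction, because the ratios do not overlap between groups. Calls over all kept probes, 29 as reported, were 19 without the intensity trend, 18 with 1 probe a gene, 17 with the replicate block, and from 14 (without control array 5R) to 103 (without mutant array 1R) with 1 array left out; they were 17 without control array 6R and 19 without control array 7R. The replicate block was fitted on the authors' normalized table, and it changed no member's call. Same-numbered samples there deviated from their group means with correlations of -0.04, -0.09 and -0.30, so no pairing by number was seen. Deviations within a group of 3 sum to 0, so these correlations cannot exclude a pairing. Signal over background limits Dll3 and Lfng, and 3 pools a group limit all differences.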
